A study of Homo sapiens with 17 samples.

Results

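The genes described here are 39 genes of the hypoxia response and of glycolysis, out of 20037 protein-coding genes, looked at in 8 lists of H2A.Z peaks from the human colon cancer line Caco-2/15. They were taken by name: 15 glycolytic enzyme genes, 7 genes of lactate, pyruvate and their transport with glucose uptake, 2 regulators of glycolytic flux, 7 genes of the HIF subunits and oxygen sensing, and 8 other hypoxia targets. Caco-2/15 cells take on features of absorptive enterocytes once they are confluent. Each cell population carried a Flag tag on 1 of the 2 H2A.Z isoforms, as heterozygous H2AFV-Flag (H2A.Z.2) or heterozygous H2AFZ-Flag (H2A.Z.1), and was studied 7 days after confluence or while subconfluent. The 4 groups are thus H2A.Z.2 postconfluent, H2A.Z.2 subconfluent, H2A.Z.1 postconfluent and H2A.Z.1 subconfluent, with 2 Flag ChIP-seq lists each (Exp1 and Exp2). The labels state no oxygen treatment for any group, so there is no hypoxic arm. The tag was placed by CRISPR-Cas9, and the labels do not say whether a population was 1 clone or whether Exp1 and Exp2 were separate cultures, so the p-values below measure the spread between these lists, which may be technical.

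HIF, the hypoxia-inducible factor, is a pair of an oxygen-labile alpha subunit and the stable subunit ARNT. In oxygen, prolyl hydroxylases of the EGLN family mark the alpha subunit, and VHL, the substrate receptor of a ubiquitin ligase, has it degraded. When oxygen is short the pair binds DNA and raises genes of glucose uptake, glycolysis, lactate export and blood vessel growth. H2A.Z is a variant of histone H2A that sits in nucleosomes flanking many active or poised promoters, and its isoforms H2A.Z.1 and H2A.Z.2 differ by a few residues.

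An interval counted as standing at a gene when it reached within 1 kb of the annotated gene end that was the stronger over all 8 lists, on hg38. Each list was first reduced to its 30603 strongest intervals, the length of the shortest one. The level given is the percentile of the authors' fold enrichment within a list, where 100 is the strongest interval of that list. It says where a gene stands among the intervals of its own list and not how much H2A.Z is bound, and an unlisted gene may hold signal below the authors' threshold. The peak names show 3 sequencing runs: the H2A.Z.2 Exp1 lists came from 1, the H2A.Z.1 Exp1 lists from another, and the 4 Exp2 lists shared the third. Within an isoform the states of an experiment number therefore share a run, whereas in Exp1 isoform and run cannot be told apart. Whole lists held 30603 to 79425 intervals and covered 18.5 to 46.9 Mb, and read depth is unknown. Of 14 intestinal epithelium markers, 4 were listed in all 8 lists, and KRT20, FABP1, FABP2 and SI were among those in none. Of 6 blood markers, 2 were in all 8, as were 0 of 5 endothelial, 2 of 6 fibroblast and muscle, and 1 of 5 neuronal and glial markers. Peak lists hold no RNA, so these counts do not measure cell types.

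Sequence is shown for ALDOC, which for H2A.Z.2 was listed after confluence alone in lists of equal length (not in whole lists), and for HIF1A, whose rank differed most between the H2A.Z.2 states. Each is the 250 bases before the annotated start, 5′ to 3′ on the gene's own strand, from RefSeq (GRCh38.p14). Capitals mark the letters ACGTG and GCGTG, the core of the HIF response element, on either strand. The ALDOC stretch is chr17:28576896-28577145 on the minus strand and the HIF1A stretch is chr14:61695263-61695512 on the plus strand.
ALDOC: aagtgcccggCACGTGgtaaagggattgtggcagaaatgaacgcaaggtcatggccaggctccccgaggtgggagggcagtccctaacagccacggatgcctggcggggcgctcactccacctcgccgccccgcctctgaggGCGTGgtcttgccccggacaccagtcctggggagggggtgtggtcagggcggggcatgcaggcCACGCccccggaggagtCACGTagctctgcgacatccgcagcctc
HIF1A: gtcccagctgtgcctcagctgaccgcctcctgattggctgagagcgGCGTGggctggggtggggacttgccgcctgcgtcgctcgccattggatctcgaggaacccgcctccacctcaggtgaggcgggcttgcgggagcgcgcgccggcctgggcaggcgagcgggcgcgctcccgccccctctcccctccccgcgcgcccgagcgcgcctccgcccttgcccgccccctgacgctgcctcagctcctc
The ALDOC stretch held 5 matches, whose first bases lay 240, 239, 108, 45 and 28 bases before the start, the first 2 of them overlapping as CACGTG. The HIF1A stretch held 1 match, 204 bases before the start. Of the 39 genes, 34 had a promoter in the table, and 22 of these (64.7%) held either motif. The share was 50.4% of all 15843 promoters and 58.9% of the 8971 promoters of genes listed in all 8 lists. ACGTG alone stood in 14 of the 34 (41.2%), against 20.7% of all promoters and 24.1% of those of genes listed in all 8 lists. GCGTG stood in 12 (35.3%), against 39.1% and 47.0%. These matches describe letters, and no binding of HIF was measured.

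Most of the hypoxia and glycolysis genes carried tagged H2A.Z in every list. An interval stood at the gene end in all 8 lists for 30 of the 39 genes (76.9%), against 54.3% of all genes. HK1 and PFKFB4 had none in any list (33.1% of all genes had none), and the other 7 were listed in some. Each list held 32 to 35 of the 39 genes. The HIF and oxygen sensing genes were listed throughout, 7 of 7. So were 13 of 15 glycolytic enzymes, 5 of 8 other hypoxia targets, 4 of 7 genes of lactate, pyruvate and transport and 1 of 2 flux regulators. The 30 genes had a median mean percentile of 75.3, beside 76.8 for the 10887 genes listed in all 8. Of 73 further genes of these pathways, 46 were in all 8 lists, 14 in some and 13 in none.

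**Figure D1:**
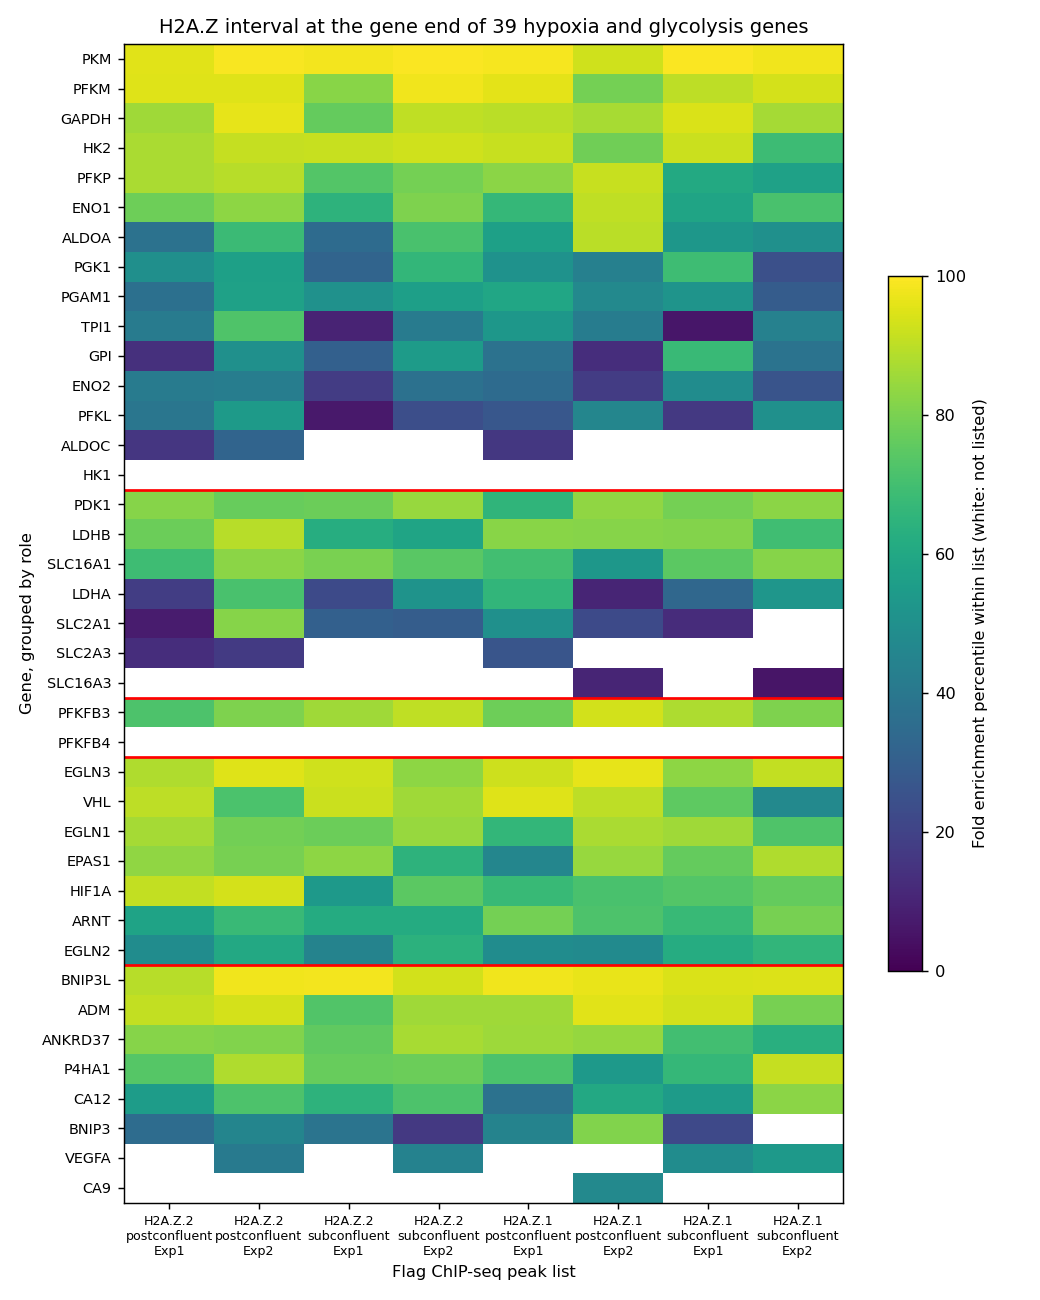
Fold enrichment percentile within each list (colour, 0 to 100, white where no interval is listed) for the 39 genes in rows, grouped by role between red lines and ordered by mean within a role, and the 8 lists in columns. PKM is near the top of every list, the HIF and oxygen sensing rows hold no white cell, and HK1 and PFKFB4 are white throughout.

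Among the glycolytic enzymes the strongest interval stood at PKM, the pyruvate kinase gene of the last step of glycolysis (chromosome 15, 72199029 to 72231591). Its percentiles were 95.7 and 99.1 in H2A.Z.2 postconfluent cells, 98.4 and 99.4 in H2A.Z.2 subconfluent cells, 98.5 and 92.9 in H2A.Z.1 postconfluent cells and 99.4 and 97.8 in H2A.Z.1 subconfluent cells. It was the 1 gene of the 39 at or above percentile 90 in all 8 lists, as were 551 genes (2.75%) in all. As a normal score of its rank, PKM was lower after confluence in all 4 pairs of lists, with a mean difference of -0.44 (SE 0.365, limma adjusted p = 0.755), which did not pass the test. PFKM, the muscle-type phosphofructokinase gene (chromosome 12, 48105353 to 48146404), shares its gene end with SENP1. It stood at 95.3 and 95.2 in H2A.Z.2 postconfluent, 82.2 and 97.9 in H2A.Z.2 subconfluent, 95.8 and 79.1 in H2A.Z.1 postconfluent and 90.1 and 93.5 in H2A.Z.1 subconfluent cells, with groups that overlap. GAPDH, which encodes the dehydrogenase of the middle of the pathway, stood between 76.5 and 96.2, and HK2, the inducible hexokinase gene, between 68.6 and 92.6.

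At the other end of the range lay PFKL, GPI and ENO2. PFKL, the liver-type phosphofructokinase gene (chromosome 21, 44300053 to 44327373), had percentiles of 39.1 and 54.3 in H2A.Z.2 postconfluent, 6.98 and 23.9 in H2A.Z.2 subconfluent, 27.2 and 45.9 in H2A.Z.1 postconfluent and 16.7 and 50 in H2A.Z.1 subconfluent cells. Both H2A.Z.2 postconfluent lists were above both H2A.Z.2 subconfluent lists, and the H2A.Z.1 groups overlapped. The H2A.Z.2 state difference of the PFKL score was 0.98 (SE 0.535, limma adjusted p = 0.855), which did not pass. Thus 2 of the 3 genes for the same enzyme differed widely in rank, with mean percentiles of 91.1 for PFKM and 33 for PFKL, and the third, PFKP, lay between at 77.6. GPI, the glucose-6-phosphate isomerase gene (chromosome 19, 34359718 to 34402413), stood at 13.8 and 50.1 in H2A.Z.2 postconfluent, 30.7 and 54.7 in H2A.Z.2 subconfluent, 37.5 and 12.9 in H2A.Z.1 postconfluent and 67.7 and 38.1 in H2A.Z.1 subconfluent cells. Its H2A.Z.1 postconfluent lists were both below the subconfluent ones. The H2A.Z.1 state difference of the GPI score was -0.87 (SE 0.537, limma adjusted p = 0.854), which did not pass. The GPI intervals had no base common to all 8 lists, so these values do not follow a single interval. ENO2, the neuron-type enolase gene (chromosome 12, 6914580 to 6923697), had its stronger intervals at the far end, which lies within 1 kb of ATN1. They stood at 41.5 and 42.4 in H2A.Z.2 postconfluent, 17.8 and 37.4 in H2A.Z.2 subconfluent, 34.8 and 17.6 in H2A.Z.1 postconfluent and 48.6 and 25.9 in H2A.Z.1 subconfluent cells. At that end the state difference was 0.05 on the score scale of the limma fit given further on (SE 0.349, limma adjusted p = 0.98). The start of ENO2 was listed in all 8 lists too. It stood at 13 and 57.5 in H2A.Z.2 postconfluent, 4.08 and 25 in H2A.Z.2 subconfluent, 63.5 and 65.0 in H2A.Z.1 postconfluent and 4.49 and 31.0 in H2A.Z.1 subconfluent cells. The start ranked higher after confluence in 4 of 4 pairs, and with starts only the state difference was 1.27 (SE 0.394, limma adjusted p = 0.268), which did not pass. ENO1, the broadly expressed enolase gene, had a mean of 74.1.

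PGK1, the phosphoglycerate kinase gene and a textbook HIF target (chromosome X, 78104248 to 78129295), stood mid-list. It had percentiles of 49.8 and 56.7 in H2A.Z.2 postconfluent, 32.4 and 66.1 in H2A.Z.2 subconfluent, 50.8 and 43.5 in H2A.Z.1 postconfluent and 69.1 and 24.4 in H2A.Z.1 subconfluent cells. The 4 groups overlapped, and its state difference was 0.02 (SE 0.392, limma adjusted p = 0.995). The aldolase gene ALDOA and the phosphoglycerate mutase gene PGAM1 had means of 57.7 and 48.5.

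LDHA, the lactate dehydrogenase subunit gene induced by HIF (chromosome 11, 18394563 to 18408425), was among the most variable. Its percentiles were 18.1 and 71.1 in H2A.Z.2 postconfluent, 22.4 and 51.4 in H2A.Z.2 subconfluent, 65.8 and 10.3 in H2A.Z.1 postconfluent and 33.3 and 52.6 in H2A.Z.1 subconfluent cells. Replicate lists of LDHA lay as far apart as the groups did, and the state difference was 0.14 (SE 0.441, limma adjusted p = 0.95). LDHB, the other subunit gene, ranked higher, at 58.3 to 89.2. Its state difference of 0.66 (SE 0.349, limma adjusted p = 0.589) was positive in 4 of 4 pairs and did not pass. The pyruvate dehydrogenase kinase gene PDK1 (65.4 to 84.4) and SLC16A1, which encodes the lactate transporter MCT1 (52.9 to 82.7), were listed throughout. So was PFKFB3 (72.2 to 93.0), whose enzyme makes the activator of phosphofructokinase.

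SLC2A1, which encodes the glucose transporter GLUT1 (chromosome 1, 42925353 to 42958868), was listed in 7 lists. It stood at 7.64 and 81.7 in H2A.Z.2 postconfluent, 30.7 and 29.4 in H2A.Z.2 subconfluent and 50.2 and 22.6 in H2A.Z.1 postconfluent cells, and at 12.7 in Exp1 but unlisted in Exp2 of H2A.Z.1 subconfluent cells. All 8 whole lists held it, so the gap came with the reduction to equal length.

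The 7 genes of HIF and oxygen sensing had mean percentiles of 55.3 to 90.2. EGLN3, a prolyl hydroxylase gene that HIF itself induces, had a mean percentile of 90.2 (83.0 to 96.4). The sister genes EGLN1 and EGLN2 had means of 80.0 and 55.3, and ARNT one of 68.3. EPAS1, which encodes HIF-2 alpha (chromosome 2, 46297407 to 46386697), stood at 83.4 and 79.5 in H2A.Z.2 postconfluent, 83.2 and 64.5 in H2A.Z.2 subconfluent, 45.9 and 84.7 in H2A.Z.1 postconfluent and 76.5 and 88.2 in H2A.Z.1 subconfluent cells. Its groups overlapped, with a state difference of -0.22 (SE 0.407, limma adjusted p = 0.911).

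Of the other hypoxia targets, the highest was BNIP3L, a receptor of mitochondrial autophagy (chromosome 8, 26383054 to 26413127). Its percentiles were 89.2 and 97.8 in H2A.Z.2 postconfluent, 98.4 and 93.3 in H2A.Z.2 subconfluent, 97.8 and 96.5 in H2A.Z.1 postconfluent and 94.2 and 94.9 in H2A.Z.1 subconfluent cells. Both H2A.Z.1 postconfluent lists lay above both subconfluent ones, by a score of 0.38 (SE 0.516, limma adjusted p = 0.94), and the H2A.Z.2 groups overlapped. Its relative BNIP3 was listed in 7 lists at 16.5 to 81.1 and in all 8 whole lists. ADM, the gene of the vasodilator peptide adrenomedullin, had a mean of 87.1 with an end near SBF2, and ANKRD37, which shares its end with LRP2BP, one of 78.4. P4HA1, a collagen prolyl hydroxylase gene, had 74.9 and CA12, a membrane carbonic anhydrase gene, 62.4. In all, 18 of the 39 genes were at or above percentile 50 in all 8 lists, as were 34.7% of all genes.

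A further question is which of these genes held an interval in one growth state only. In H2A.Z.2, SLC2A3 and ALDOC were listed in both replicates after confluence and in neither before it, 2 of 39 genes, against 0.684% of all genes. None of the 39 showed the reverse (0.444% of all genes). In H2A.Z.1, VEGFA was listed in both replicates before confluence and in neither after it (0.609% of all genes), and 0 of the 39 showed the reverse (0.554%). With 2 lists a group no test can give a small p here, so these are counts without one.

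SLC2A3, which encodes the high-affinity glucose transporter GLUT3 (chromosome 12, 7919230 to 7936187), stood at 13 and 16.9 in H2A.Z.2 postconfluent cells and was unlisted in H2A.Z.2 subconfluent cells. In H2A.Z.1 it stood at 26.2 in postconfluent Exp1 and was unlisted in postconfluent Exp2 and in both subconfluent lists. In whole lists the percentiles were 29.5 and 49.3 in H2A.Z.2 postconfluent and 60.0 and 34.9 in H2A.Z.1 postconfluent cells, and none of the 4 subconfluent lists held an interval. Over both isoforms, SLC2A3 was thus listed in 4 of 4 whole lists after confluence and in 0 of 4 before it, the only one of the 39 genes with that pattern, which 24 genes in all had (0.120%). By isoform, the whole-list rule was met by SLC2A3 in H2A.Z.2 (0.399% of all genes) and in H2A.Z.1 (0.983%). In the equal-length lists 0 of the 39 met that rule in either direction (0.130% and 0.0948% of all genes). The interval was low in rank, with a summit at -892 to -838 bp from the higher-coordinate end, inside the gene, and chr12:7934758-7935622 was common to its 3 equal-length lists. SLC2A14, a near-identical neighbour, was listed in all 8 lists at 45.3 to 88.6. The sources used here do not say how reads matching both genes were placed, so the values of SLC2A3 are uncertain.

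ALDOC, which encodes the brain-type aldolase (chromosome 17, 28573120 to 28576895), stood at 15.8 and 32.1 in H2A.Z.2 postconfluent cells and was unlisted in H2A.Z.2 subconfluent cells. In H2A.Z.1 it stood at 16.3 in postconfluent Exp1 and was unlisted in the other 3 lists. The pattern ended with whole lists, where 1 subconfluent list of each isoform held it: 32.6 and 59.5 in H2A.Z.2 postconfluent against 10.9 and unlisted in H2A.Z.2 subconfluent, and 53.0 and 36.8 in H2A.Z.1 postconfluent against 22.6 and unlisted in H2A.Z.1 subconfluent cells. The intervals of the 3 equal-length lists covered 247 to 250 of the 250 promoter bases printed above, and the SPAG5 gene has an end within 1 kb of them.

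VEGFA, the gene of the main growth factor of blood vessels (chromosome 6, 43770211 to 43786487), stood at 48.5 and 54.2 in H2A.Z.1 subconfluent cells and was unlisted in H2A.Z.1 postconfluent cells. For H2A.Z.2 only the Exp2 lists held it, at 40.7 in postconfluent and 44.2 in subconfluent cells. In whole lists it was still unlisted in both H2A.Z.1 postconfluent lists and stood at 66.2 and 78.9 in H2A.Z.1 subconfluent cells, a pattern shared by 0.245% of all genes. H2A.Z.2 had it in 1 whole postconfluent list at 64.7 and in both subconfluent ones at 44.6 and 44.2. In lists cut to equal covered length VEGFA did not meet the rule. The 4 equal-length intervals were narrow, 250 to 391 bp, and had chr6:43769752-43770001 in common. Among the 73 further pathway genes, the chemokine receptor gene CXCR4 alone met a rule in the equal-length lists. It was in both H2A.Z.2 subconfluent lists at 51.4 and 42.6 and in neither H2A.Z.2 postconfluent list, though both whole postconfluent lists held it at 10.4 and 18.5. Whole lists also gave calls among these genes, such as PCK1, a gluconeogenesis enzyme gene, which was in both H2A.Z.1 postconfluent lists and in neither H2A.Z.1 subconfluent nor H2A.Z.2 postconfluent list.

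**Figure D2:**
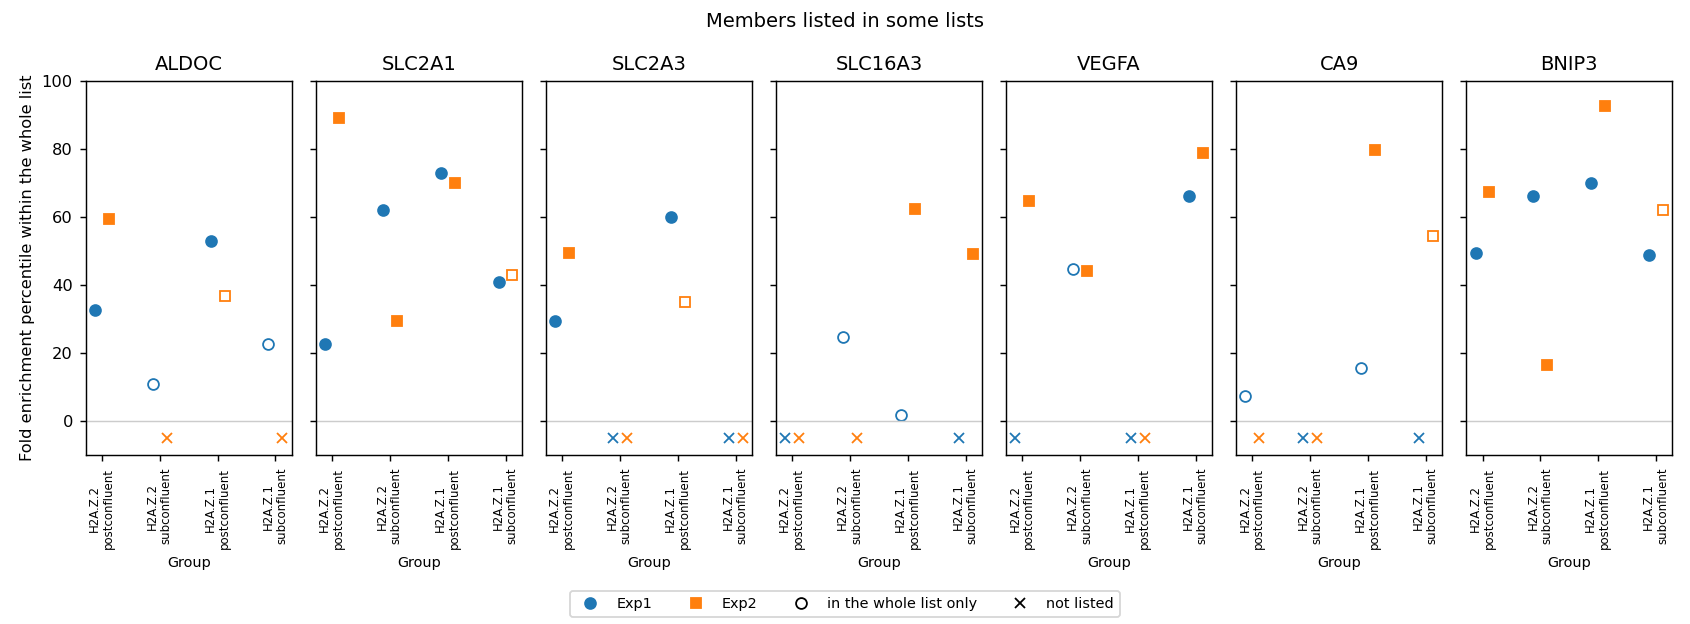
Fold enrichment percentile within the whole list (y axis) for the 7 genes listed in some of the equal-length lists, by group (x axis) with Exp1 as circles and Exp2 as squares. Open symbols are in the whole list only, and crosses below 0 are not listed. SLC2A3 has symbols in the postconfluent groups alone, and VEGFA has none in H2A.Z.1 postconfluent cells.

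CA9, a carbonic anhydrase gene often used as a marker of hypoxia, was listed in 1 list, H2A.Z.1 postconfluent Exp2, at 47.1, and in 4 whole lists. SLC16A3, which encodes the lactate exporter MCT4, was listed at its outer 5′ end in H2A.Z.1 postconfluent Exp2 (10.2) and H2A.Z.1 subconfluent Exp2 (5.81). A RefSeq start 16965 bp inside SLC16A3 was listed in all 8 lists, of both isoforms, at 46.1 to 73.1. Between isoforms, 0 of the 39 genes were in both lists of one and neither of the other. For the rule met by H2A.Z.2 the share of all genes was 0.140% in postconfluent and 0.175% in subconfluent cells, and for that met by H2A.Z.1 it was 0.499% and 0.649%. Over both states 0 were in all 4 lists of one isoform alone (0.00499% of all genes for H2A.Z.2 and 0.0449% for H2A.Z.1). In whole lists the outer end of SLC16A3 stood in both H2A.Z.1 postconfluent lists, at 1.85 and 62.3. That end stood in neither H2A.Z.2 postconfluent list, a rule met by 1.43% of all genes. In whole lists 0 of the 39 met the other rules. These were before confluence alone in H2A.Z.2 (0.230% of all genes) or in both isoforms (0.00998%), H2A.Z.2 or H2A.Z.1 alone in subconfluent cells (0.0549% and 0.868%), and H2A.Z.1 alone in both states (0.0998%).

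For the 30 genes listed everywhere, rank was compared between groups. Ranks over the 10887 genes listed in all 8 lists were turned into normal scores, in units of standard deviations, and fitted with limma, with Benjamini-Hochberg adjustment over those genes. The main fit held no run or experiment term, so its SE and p-values do not use the pairing of lists by run. None of the 30 passed an adjusted p of 0.05 in any of the 7 contrasts. Between states over both isoforms 0.0459% of all genes passed, and 0 in the other 6 contrasts. At an unadjusted p under 0.05, 2 of the 30 genes were reached between states over both isoforms (9.14% of all genes), 1 in H2A.Z.2 (5.81%) and 2 in H2A.Z.1 (6.90%). Between isoforms the limma count was 0 over both states (3.73%), 1 in postconfluent cells (3.53%) and 1 in subconfluent cells (3.67%), and for the difference of the state differences it was 2 (3.13%). None of the 46 further pathway genes ranked passed either. After confluence 19 of the 30 scores were higher, with a median of 0.05, beside 49.8% and a median of 0.0 over all genes. Within an isoform the count was 16 of 30 in H2A.Z.2 (49.7% of all genes) and 16 of 30 in H2A.Z.1 (49.6%). Between isoforms 21 of the 30 were higher in H2A.Z.2, with a median of 0.16, beside 50% and 0.0. By state, 22 were higher in postconfluent cells (51.2% of all genes) and 17 in subconfluent cells (49.4%). The Exp1 lists in these isoform contrasts cannot separate isoform from run, and a shift of the 30 genes as a set was not tested.

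PFKP, the platelet-type phosphofructokinase gene (chromosome 10, 3067548 to 3136805), came nearest. Its percentiles were 87.4 and 89.2 in H2A.Z.2 postconfluent, 73.4 and 79.0 in H2A.Z.2 subconfluent, 82.6 and 91.6 in H2A.Z.1 postconfluent and 60.6 and 57.3 in H2A.Z.1 subconfluent cells. All 4 postconfluent lists stood above all 4 subconfluent ones, by 0.68 and 0.59 in H2A.Z.2 and by 1.05 and 1.68 in H2A.Z.1 (Exp1 and Exp2). The mean difference of 1.00 (SE 0.345, limma adjusted p = 0.349) did not pass, nor did that of 1.36 in H2A.Z.1 (SE 0.488, limma adjusted p = 0.58). The summit of the PFKP interval lay a median of 1178 bp past the outermost start, near another RefSeq start 1079 bp inside the gene. An uncharacterised gene, LOC124902536, has an end within 1 kb.

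TPI1, the triosephosphate isomerase gene (chromosome 12, 6867420 to 6870948), shares its end with USP5. It stood at 41.5 and 72.4 in H2A.Z.2 postconfluent, 9.85 and 41.7 in H2A.Z.2 subconfluent, 52.8 and 42.1 in H2A.Z.1 postconfluent and 6.19 and 43.8 in H2A.Z.1 subconfluent cells. The 2 low values were both subconfluent Exp1 lists, and the score was higher after confluence in 3 of 4 pairs, by 0.95 on average (SE 0.405, limma adjusted p = 0.477).

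HIF1A, which encodes HIF-1 alpha (chromosome 14, 61695513 to 61748258), stood at 90.7 and 93.6 in H2A.Z.2 postconfluent and 54.1 and 74.8 in H2A.Z.2 subconfluent cells, against 67.4 and 71.4 in H2A.Z.1 postconfluent and 73.4 and 76.5 in H2A.Z.1 subconfluent cells. The H2A.Z.2 postconfluent lists were above the other 6. The H2A.Z.2 state difference was 1.39 (SE 0.492, limma adjusted p = 0.82), at 1.64 in Exp1 and 1.15 in Exp2, and that of H2A.Z.1 was -0.26 (SE 0.492, limma adjusted p = 0.961). The difference of the state differences, 1.65 (SE 0.696, limma adjusted p = 1), did not pass, nor did H2A.Z.2 against H2A.Z.1 in postconfluent cells at 1.27 (SE 0.492, limma adjusted p = 1). That isoform difference was 1.28 in Exp1 and 1.27 in Exp2, where the isoforms share a run.

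The HIF1A start is flanked by a pair of intervals in every list. The upstream one, with its summit at -554 to -370 bp from the start, had percentiles of 90.7 and 82.0 in H2A.Z.2 postconfluent and 54.1 and 74.8 in H2A.Z.2 subconfluent cells, and 67.4 and 56.3 in H2A.Z.1 postconfluent and 73.4 and 76.5 in H2A.Z.1 subconfluent cells. The downstream one stood at 75.2 and 93.6 in H2A.Z.2 postconfluent and 41.7 and 65.1 in H2A.Z.2 subconfluent cells, and at 54.6 and 71.4 in H2A.Z.1 postconfluent and 44.7 and 59.2 in H2A.Z.1 subconfluent cells. On either side both H2A.Z.2 postconfluent lists were above both H2A.Z.2 subconfluent lists. For H2A.Z.1 the postconfluent lists were below the subconfluent ones upstream, and downstream the groups overlapped. The score of HIF1A used the downstream interval in both postconfluent Exp2 lists and the upstream one in the other lists. Its Exp2 state differences thus set a downstream interval against an upstream one. The intervals used at GPI, PGK1, PGAM1, SLC16A1, ADM, ANKRD37 and BNIP3 likewise had no base common to all lists that held them. Values of those genes therefore also set different intervals side by side. The interval used covered 22 to 84 of the 250 promoter bases printed above.

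VHL (chromosome 3, 10141778 to 10153667) stood at 89.9 and 71.6 in H2A.Z.2 postconfluent and 92.0 and 85.9 in H2A.Z.2 subconfluent cells, and at 95.0 and 90 in H2A.Z.1 postconfluent and 75.3 and 46.9 in H2A.Z.1 subconfluent cells. The H2A.Z.1 postconfluent lists were above the subconfluent ones by 1.34 in Exp1 and 1.95 in Exp2, whereas in H2A.Z.2 the differences were -0.21 and -0.75. The H2A.Z.1 state difference of 1.64 (SE 0.541, limma adjusted p = 0.519) did not pass. Nor did the difference of the state differences, -2.12 (SE 0.765, limma adjusted p = 1), nor H2A.Z.2 against H2A.Z.1 in subconfluent cells, 1.35 (SE 0.541, limma adjusted p = 0.999). The isoform difference of VHL in subconfluent cells was 1.09 in Exp1 and 1.62 in Exp2, where the isoforms share a run. For both HIF1A and VHL the state differences had opposite signs in the 2 isoforms, and for neither gene did the test of that difference pass.

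**Figure D3:**
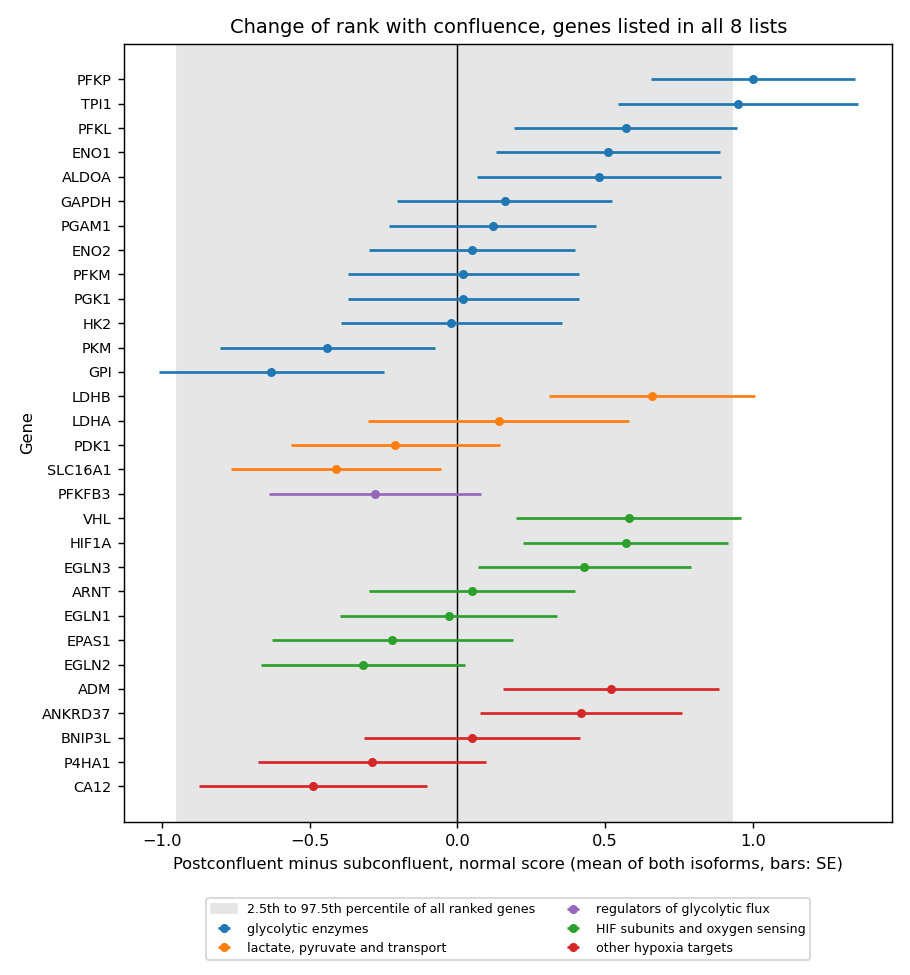
Postconfluent minus subconfluent normal score, mean of both isoforms (x axis, in SD units), for the 30 genes listed in all 8 lists (y axis, coloured by role). Bars are the standard error of the limma fit and the grey band is the central 95% of all 10887 genes, from -0.95 to 0.93. PFKP and TPI1 lie past the upper edge, and no gene passed the adjusted test.

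**Figure D4:**
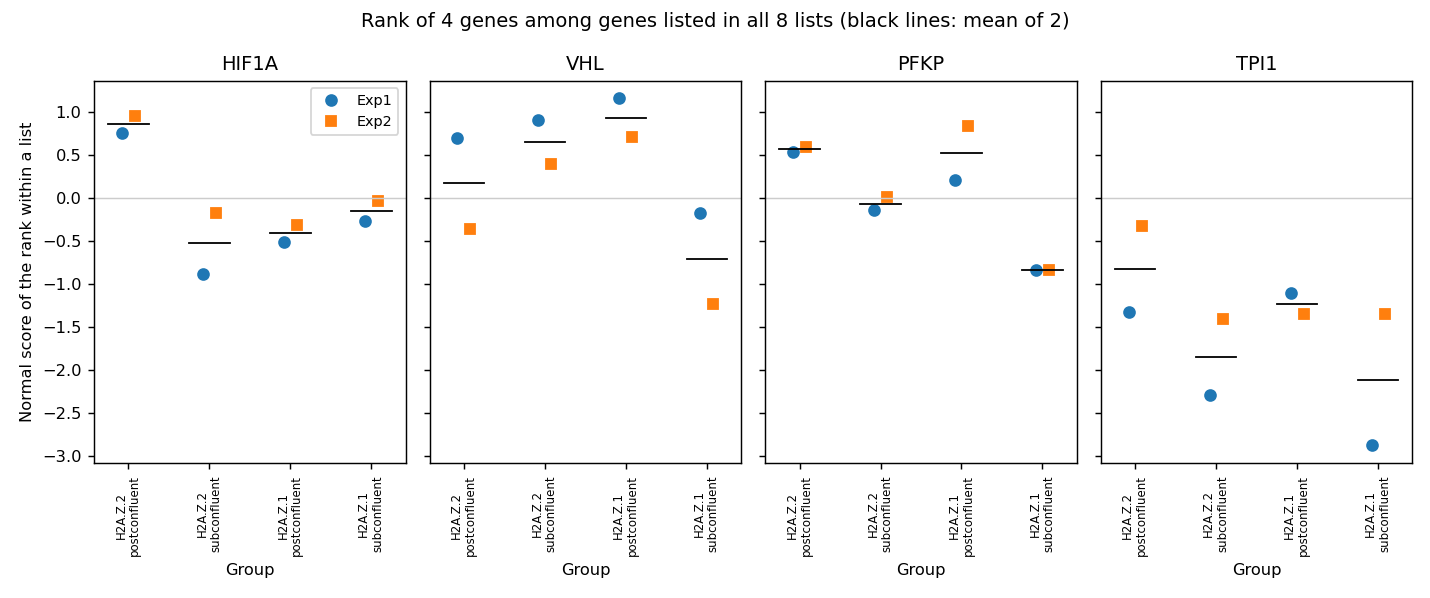
Normal score of the rank within each list (y axis, in SD units) for HIF1A, VHL, PFKP and TPI1, by group (x axis) with Exp1 as circles, Exp2 as squares and the mean of 2 as a black line. HIF1A is highest in H2A.Z.2 postconfluent cells, VHL is lowest in H2A.Z.1 subconfluent cells, and PFKP is higher in each postconfluent group than in its subconfluent one.

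The place of the interval relative to the start could be read for 26 of the 30 genes. Its summit lay downstream of the start for 10 (38.5%), against 50.3% of 8530 genes, with a median of -215.8 bp against 6.75 bp. Within 500 bp of the start lay 18 (69.2%), against 80.3%. Measured from the outermost start, the farthest downstream summits were those of HK2, a median of 1354 bp inside the gene, PFKP at 1178 bp and PFKM at 862 bp. RefSeq also annotates starts nearer to these summits, 1043 bp inside HK2, 1079 bp inside PFKP and 753 and 763 bp inside PFKM. For other genes the first start in the promoter table lies inside the gene and farther from the summit. It lies 111 bp inside TPI1, 401 bp inside PKM, 747 bp inside GAPDH, 1627 bp inside PGAM1 and 5274 bp inside GPI. The counts above use the outermost gene end and would differ with these starts. The farthest upstream summits were those of ADM at -967.5 bp and EGLN2 at -875.5 bp. PKM had its summit at -103 bp from its outermost gene end. Over the 30 genes, median interval widths ran from 434 bp at EGLN1 to 3340 bp at ADM.

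**Figure D5:**
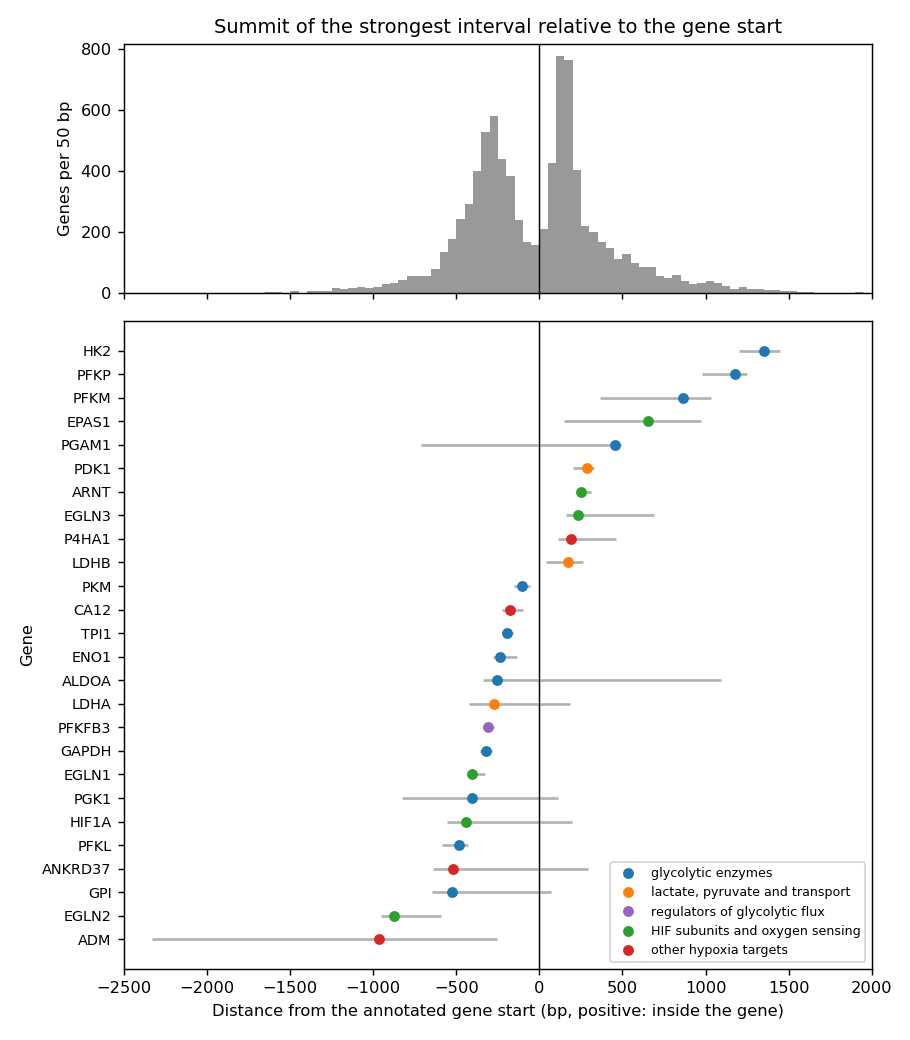
Distance of the strongest interval's summit from the annotated gene start in bp (x axis, positive inside the gene). The upper panel counts all 8530 genes per 50 bp, and the lower panel shows the 26 genes of the hypoxia and glycolysis set with the median as a point and the lowest to highest of 8 lists as a line. Genes form an upstream and a downstream mode, and 16 of the 26 medians lie upstream.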

How the data were processed

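Flag ChIP-seq of Caco-2/15 cells was analysed from 8 deposited peak lists, 1 per sample. The labels name 17 samples, of which 9, the input and the precipitations with an antibody to H2A.Z itself, are not analysed here. Per the labels' protocols, each reaction held 4 µg of Flag antibody, and 1 µg of spike-in antibody was added along with 10 ng of its chromatin. Reads were single-end, 85 bp. The submitters' processing notes name hg38, BWA and deepTools. Not given in the sources used here are the peak caller, its control and any use of the spike-in. In the deposited lists the score is 10 times the −log10 q-value, and the authors' fold enrichment is a ratio whose denominator is not given. The authors also gave −log10 p and −log10 q for each interval, and the lowest −log10 q-value was 3.00. No depth, and so no counting interval, can be had from peak lists.

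Intervals were cut to the 30603 of highest −log10 p in each list, and fold was ranked within a list, never compared as a level between lists. Gene ends are those of 20037 protein-coding genes (GRCh38.p14), with a minimum overlap of 1 bp, and each gene is represented by its stronger end over the 8 lists together. Strand was known for 15843 genes. Exons, introns and untranslated regions were not used here. Presence was compared by rule, and ranks with limma 3.58.1 (R 4.3.3), 2-sided, as 4 group means. The fit was tested on simulated data with planted differences larger than any of these genes showed. That test does not say whether smaller differences would be found. Full values are given for genes that met a presence rule, had an unadjusted limma p under 0.05, or were the 3 highest or 3 lowest by mean percentile, and for HIF1A, EPAS1, LDHA, PGK1 and SLC2A1. The genes, lists and tests were chosen with earlier results of these data known. Alternatives were whole lists, lists of 15301 intervals or of equal covered length, other windows, starts only, other ranks, each list left out, and the replicate number or the run as a term.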

Additional observations from a re-analysis of the deposited data

Results flagged for a closer look

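Intervals away from the gene ends stood in all 8 lists at 3 of the genes that were unlisted or seldom listed at an end. Each lies at a start of transcription that RefSeq annotates inside the gene, which the gene-end comparisons above do not use. At HK1, the gene of a widely expressed hexokinase, a start 48181 bp inside the gene had a mean percentile of 25.1. The values were 8.11 and 10.7 in H2A.Z.2 postconfluent, 11.7 and 23.8 in H2A.Z.2 subconfluent, 28.2 and 39.9 in H2A.Z.1 postconfluent and 11.6 and 67.1 in H2A.Z.1 subconfluent cells. At PFKFB4, whose enzyme sets the level of the phosphofructokinase activator, a start 6333 bp inside had a mean of 58.5 and values between 47.3 and 75.4. At SLC16A3 a start 16965 bp inside had a mean of 58.8. There the values were 67.5 and 73.1 in H2A.Z.2 postconfluent and 51.1 and 46.1 in H2A.Z.2 subconfluent cells, and 65.3 and 58.1 in H2A.Z.1 postconfluent and 59.2 and 50.2 in H2A.Z.1 subconfluent cells, so that the postconfluent lists were higher for H2A.Z.2 and overlapped the subconfluent ones for H2A.Z.1. With starts only, where a gene takes its strongest start, the state difference was -0.27 at HK1 (SE 0.417, limma adjusted p = 0.881). At PFKFB4 it was -0.49 (SE 0.344, limma adjusted p = 0.691) and at SLC16A3 0.53 (SE 0.34, limma adjusted p = 0.654). By isoform, SLC16A3 had 0.76 in H2A.Z.2 (SE 0.481, limma adjusted p = 0.869) and 0.31 in H2A.Z.1 (SE 0.481, limma adjusted p = 0.944). None of these passed, and which start the cells use was not measured. Groups of 2 lists are too small for a check of single outlying lists.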

How the results depend on the processing

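No gene of the 39 passed limma in any of the 7 contrasts under any setting run, the replicate block included. Within an isoform both states of an experiment number came from 1 sequencing run, whereas between isoforms only Exp2 shared one. Deviations correlated at 0.158 between the H2A.Z.2 states, 0.207 between the H2A.Z.1 states and -0.0553 to 0.0496 between isoforms. With the replicate block 0 genes of the 39 passed, and the PFKP state difference stayed 1.00 (limma adjusted p = 0.283). With the run as a term, chosen after seeing the data, it was 1.00 (limma adjusted p = 0.206). With ranks by −log10 p the PFKP difference was 1.31, just short of the threshold (limma adjusted p = 0.0552). With equal covered length the PFKP limma adjusted p was 0.357, and without 1 list the difference was 0.84 to 1.15. PFKP was not ranked with the summit in the window, because most of its summits lay more than 1 kb from the end used. Of all genes, the 5 past limma between states were 9 with the replicate block, 16 with the run as a term, 41 with ranks by −log10 p, 8 with −log10 q of at least 5, 3 with starts only or with the summit in the window, 0 with 15301 intervals, equal covered length or plain percentiles, and 0 to 5 without 1 list.

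The count listed in all 8 lists, 30, was 32 with whole lists, 20 with lists of 15301 intervals, 22 with equal covered length and 30 to 32 without 1 list. The count listed in none, 2, was 1 with whole lists, a −log10 q of at least 5 or a 2 kb window, 6 with 15301 intervals, 5 with equal covered length, 0 with starts only and 2 to 3 without 1 list. For state in H2A.Z.2 the 2 genes were 1 with whole lists, equal covered length, −log10 q of at least 5, a 2 kb window or starts only. They were 0 with 15301 intervals, and 3 with the summit in the window, where HK2 was added. SLC2A3 and VEGFA have no start in the table, so with starts only neither could be counted. For state in H2A.Z.1 the 1 gene was 2 with whole lists or −log10 q of at least 5, 0 with 15301 intervals or starts only, and 1 to 3 without 1 list, and at equal covered length the 1 gene was GPI in place of VEGFA. The rule over both isoforms, 0, was 1 (SLC2A3) with whole lists or −log10 q of at least 5 and 0 to 2 without 1 list, the 2 being SLC2A3 and ALDOC without H2A.Z.1 postconfluent Exp2. Between isoforms in postconfluent cells 0 was 1 with whole lists, equal covered length or a 500 bp window, 2 with −log10 q of at least 5, and 0 to 4 without 1 list. In subconfluent cells it was 0 to 3 without 1 list. The cause was not tested, and fewer intervals in the shorter lists leave fewer genes by construction. A list cannot show whether an unlisted gene lacks H2A.Z or falls below the authors' threshold.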

Other observations

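HK1 was unlisted at both gene ends in the equal-length lists, and 1 whole list, H2A.Z.1 subconfluent Exp2, held an interval at an end, at percentile 9.17. PFKFB4 was unlisted at both ends in all 8 whole lists. At GPI a start 5274 bp inside the gene stood in all 8 lists with a mean percentile of 60.5, above the 38.2 of the gene end. At PFKFB3 a start 58011 bp inside stood in all 8 lists with a mean of 55.2, below the 83.6 of its gene end.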
